A study of Mus musculus with 22 samples.

Results

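Skeletal muscle antigens were followed in the mouse thymus, in its medullary epithelial cells (MECs), as 10 genes: Chrna1, Myog, Actc1, Acta1, Ckm, Mylpf, Tnnt3, Tnnc2, Myl1 and Ryr1. They were chosen by symbol, and every probe whose single gene symbol in the platform annotation was one of them was taken. Each of the 10 had exactly 1 such probe, so all 10 were among the 19752 genes tested. Chrna1, Actc1 and Tnnc2 lie on chromosome 2, Ckm, Mylpf, Tnnt3 and Ryr1 on 7, Myog and Myl1 on 1, and Acta1 on 8. The study profiled 22 whole-transcript Affymetrix arrays, 10 of Aire-/- mice (KO) and 12 of Aire+/+ mice (WT), all C57Bl/6. Per the labels, the cells were live (DAPI negative), CD45 negative, low for Ly51 and high for MHC class II. The KO groups were KO DMSO (3 arrays), KO Etopo (2), KO Topo (3) and KO EtopoTopo (2). The WT groups were WT DMSO, WT Etopo, WT Topo and WT EtopoTopo, with 3 arrays each. DMSO was the vehicle. Etopo and Topo are common short forms of etoposide, which blocks type II topoisomerases, and topotecan, which blocks topoisomerase I, but the labels do not write them out, and doses and times were not used here. All 5 EtopoTopo arrays, WT DMSO 3 and WT Etopo 3 came from mice aged 4 weeks, and the others from mice aged 6 weeks. WT EtopoTopo 1 and 2 name both drugs in the title and Etopo alone in the treatment label, and they were grouped by title. How many mice went into an array is not in the labels, so the replicate spread behind each p-value may be partly or wholly technical.

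MECs transcribe many genes that otherwise belong to peripheral tissues, and show the products to developing T cells, so that T cells reactive to them can be removed or diverted. Aire is the regulator that raises many of these genes. Muscle antigens have a place of their own in the thymus, because rare muscle-like (myoid) cells in the medulla carry them, and because the acetylcholine receptor of muscle, whose alpha1 subunit Chrna1 encodes, is the main target of autoantibodies in myasthenia gravis. Among the other genes, myogenin (Myog) is the transcription factor that drives the muscle differentiation programme by binding E-boxes. Actc1 and Acta1 encode cardiac and skeletal alpha-actin of the thin filament. Tnnt3 and Tnnc2 encode fast troponins T and C, and Mylpf and Myl1 encode fast light chains of myosin. Ckm encodes muscle creatine kinase, and Ryr1 the calcium release channel of the sarcoplasmic reticulum.

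The promoters of 4 of these genes are shown because the expression results below set Chrna1 and Actc1 apart from Myog, which binds E-boxes, and from Acta1, the closest relative of Actc1. Each is the 250 bases before the RefSeq start site, in build GRCm38.p6, read 5′ to 3′ on the strand of the gene, with E-boxes (CANNTG) in capitals. Chrna1 lies on the minus strand at chr2:73580339-73580588, Actc1 on the minus strand at chr2:114052876-114053125, Myog on the plus strand at chr1:134289754-134290003, and Acta1 on the minus strand at chr8:123894776-123895025.
Chrna1: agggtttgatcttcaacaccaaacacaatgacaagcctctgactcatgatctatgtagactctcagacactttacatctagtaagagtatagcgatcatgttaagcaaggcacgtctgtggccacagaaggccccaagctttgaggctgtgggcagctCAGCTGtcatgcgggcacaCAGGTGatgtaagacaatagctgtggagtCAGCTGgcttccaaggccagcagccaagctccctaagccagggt
Actc1: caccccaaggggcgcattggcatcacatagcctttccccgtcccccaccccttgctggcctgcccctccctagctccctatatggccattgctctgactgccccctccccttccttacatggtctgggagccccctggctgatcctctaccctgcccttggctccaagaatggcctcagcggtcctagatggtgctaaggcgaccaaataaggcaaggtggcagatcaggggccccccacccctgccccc
Myog: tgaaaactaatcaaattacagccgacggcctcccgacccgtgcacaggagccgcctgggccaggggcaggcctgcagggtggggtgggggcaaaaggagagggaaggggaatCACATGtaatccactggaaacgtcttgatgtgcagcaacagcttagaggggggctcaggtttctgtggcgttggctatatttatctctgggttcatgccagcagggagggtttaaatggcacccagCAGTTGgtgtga
Acta1: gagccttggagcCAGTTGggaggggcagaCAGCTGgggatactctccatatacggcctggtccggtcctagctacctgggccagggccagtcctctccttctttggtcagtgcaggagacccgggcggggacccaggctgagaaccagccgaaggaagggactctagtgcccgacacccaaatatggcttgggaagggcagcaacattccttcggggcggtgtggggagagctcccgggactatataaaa
The Chrna1 window held 3 E-boxes, starting 92, 73 and 44 bases before the start site, and 2 of them read CAGCTG. Of 32851 mouse promoters of the same length, 66.2% held at least 1 CANNTG and 12.2% held 3 or more, while 13% held CAGCTG and 1.26% held it at least 2 times. The Actc1 window held no CANNTG. It held 1 CArG box, the element bound by serum response factor in actin promoters, starting 47 bases before the start site. Acta1 held 2 E-boxes and 1 CArG box, starting 73 bases before the start site, and a CArG box was found in 1.47% of all promoters. Of the 9 genes with a promoter in the table used, 7 held CANNTG and 5 held CAGCTG. A CArG box was in 2 and TATAAA in 2 (12.4% of all promoters). The MEF2 site was searched only in the strict form CTAWWWWTAR (W is A or T, R is A or G), which 0 held (1.69% of all promoters). Looser forms were not searched, and the Myog window holds CTATATTTAT, which differs from the strict form in its last base. The motifs were searched on both strands, and CAGCTG is one form of CANNTG. A match is a description of the letters only. The promoter of Tnnt3 was not used here.

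The arrays were alike in brightness, with medians of 236 to 264 intensity units, and replicate arrays correlated at 0.963 to 0.997 over all genes. Epcam, a marker of thymic epithelium, and H2-Aa, an MHC class II chain, were high on all 22 arrays, at 10.4 to 10.9 and 12.7 to 13.6 on the log2 scale. The Aire probe does not check the deletion: it read 12.91 ± 0.04 in KO DMSO and 12.31 ± 0.11 in WT DMSO (SD, n = 3 each). KO DMSO 1 and WT DMSO 1 stood apart by thymocyte genes, with list means of 9.08 and 8.69 against 7.25 to 8.06 on the other arrays, although the sort gate leaves out CD45-positive cells. A male label stands on WT Topo 2, WT Etopo 2 and WT DMSO 1, yet these arrays had high Xist and low Y-linked transcripts, as did the other 19 arrays. KO EtopoTopo 1 had the narrowest spread of log2 values between the 10th and 90th percentile of genes, 3.89. Under EtopoTopo, 1194 olfactory and vomeronasal receptor genes, as a rule silent in such cells, shifted by a median of 0.49 in KO and 0.31 in WT relative to DMSO.

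Chrna1 and Actc1 were much lower in KO than in WT MECs under DMSO, Tnnt3 was slightly lower, and the other 7 muscle genes did not pass the test. Chrna1 read 6.71, 7.41 and 7.15 in KO DMSO, against 8.45, 8.86 and 8.92 in WT DMSO (log2 intensity). All 3 KO arrays lay more than 1 log2 unit below the lowest WT array, and the groups did not overlap. The difference was -1.65 ± 0.18 (SE; 95% interval -2.03 to -1.27), a 3.14-fold higher level in WT, with an adjusted p of 6.33e-07 by limma with Benjamini-Hochberg adjustment over all genes. The array gives bulk RNA, in which fewer muscle-like cells and less muscle RNA per cell cannot be told apart. Actc1 read 8.01, 8.33 and 8.38 in KO DMSO, against 9.59, 9.71 and 9.70 in WT DMSO. Its groups were also apart, and the WT arrays lay closer together than the KO arrays. The difference was -1.43 ± 0.12 (adjusted p = 2.13e-08), a 2.69-fold higher level in WT. Tnnt3 read 7.77, 7.88 and 8.13 in KO DMSO, against 8.18, 8.51 and 8.28 in WT DMSO, so that the highest KO array lay just under the lowest WT array. The difference of -0.40 ± 0.13 (adjusted p = 0.0364) was 1.32-fold and was past the threshold by little: it lost the call in 9 of the 34 alternative settings, with the replicate number as a block among them (adjusted p = 0.0501).

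In count, 3 of the 10 genes were called, all lower in KO, where 19.4% of all genes were called, 12% lower and 7.4% higher. The 2 groups did not overlap for 3 of the 10, against 31.9% of all genes. The median difference over the 10 was -0.17, against -0.01 over all genes tested. Within the 10, Chrna1 and Actc1 stood apart by the size of their differences. At matched age (6 weeks, 3 KO DMSO arrays and 2 WT DMSO arrays), the differences in means were -1.56 for Chrna1, -1.41 for Actc1 and -0.42 for Tnnt3. Without the KO DMSO and WT DMSO arrays high in thymocyte genes, Chrna1 and Actc1 kept their calls.

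**Figure D1:**
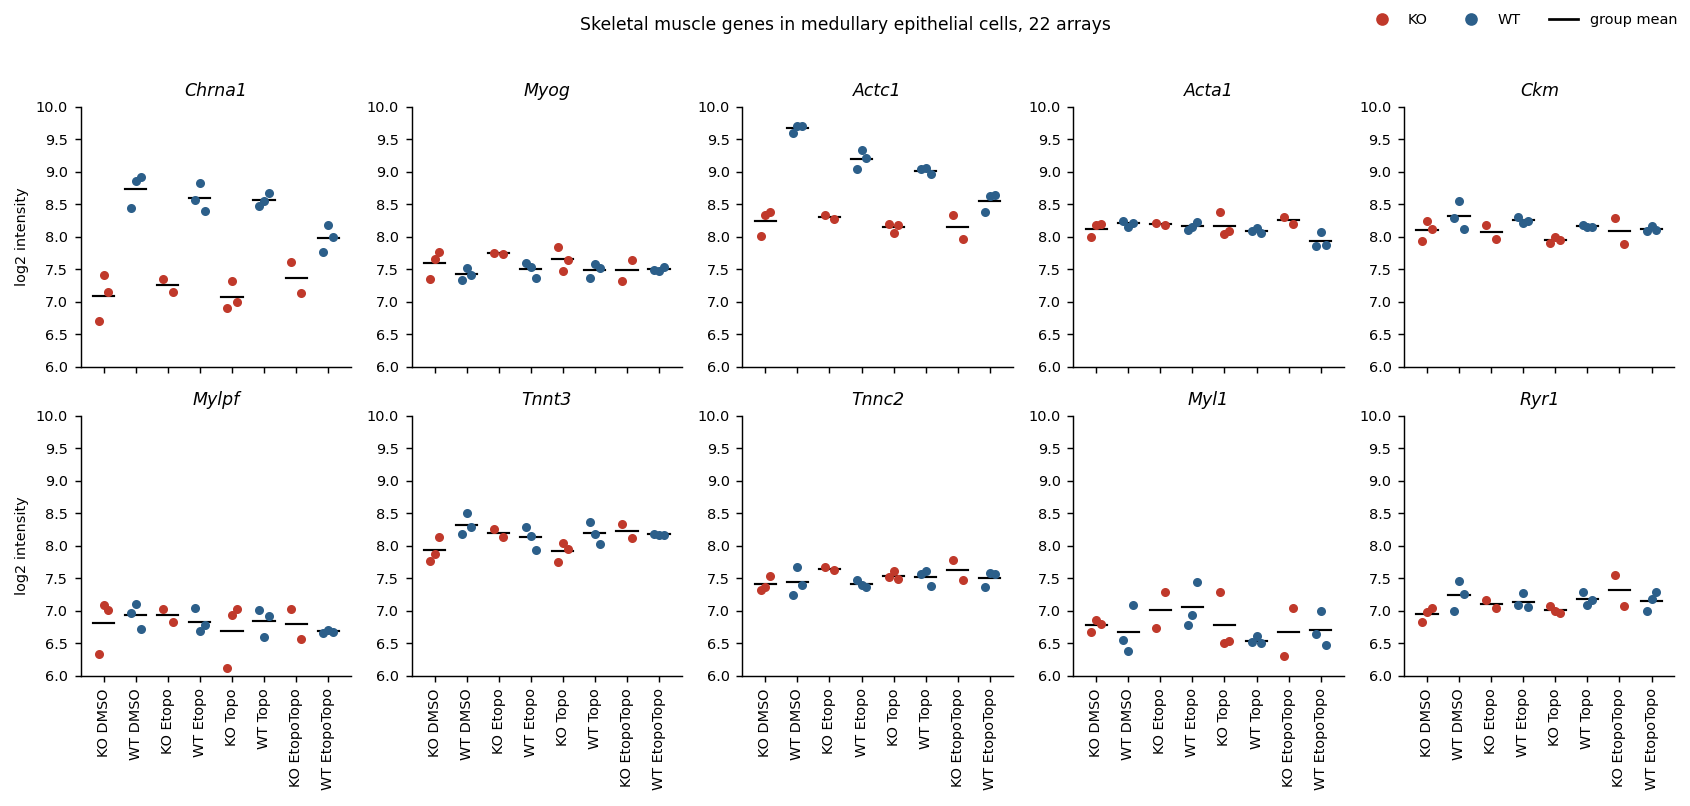
Log2 intensity (vertical axis) of each of the 10 muscle genes on each of the 22 arrays, by treatment along the horizontal axis, with KO arrays left of WT arrays in each treatment. Points are arrays and short lines are group means. For Chrna1 the KO points lie between 6.71 and 7.61 and the WT points between 7.76 and 8.92, while for genes such as Tnnc2 and Acta1 the genotypes mix.

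The 7 genes that did not pass the test included a transcription factor, an actin, a troponin and both myosin light chains. Myog, the transcription factor, read 7.36, 7.66 and 7.76 in KO DMSO, against 7.34, 7.52 and 7.42 in WT DMSO, a difference of 0.17 ± 0.13 (95% interval -0.10 to 0.43, adjusted p = 0.427). Acta1 read 8.0, 8.18 and 8.19 in KO DMSO, against 8.24, 8.16 and 8.22 in WT DMSO. These arrays overlap, and the difference of -0.08 ± 0.11 had an adjusted p of 0.70 (95% interval -0.31 to 0.15). Ckm differed by -0.22 ± 0.12 (adjusted p = 0.254) and Ryr1 by -0.28 ± 0.13 (adjusted p = 0.16). Tnnc2 differed by -0.03 ± 0.12 (adjusted p = 0.912), so the fitted difference of the fast troponin C was smaller than that of the fast troponin T. For the myosin light chains the arrays spread more: Mylpf differed by -0.12 ± 0.21 (95% interval -0.56 to 0.33) and Myl1 by 0.10 ± 0.23 (95% interval -0.39 to 0.58). The intervals of all 7 genes exclude a difference as large as those of Chrna1 and Actc1, but not smaller ones. No cutoff for detection was set. Myog, Tnnc2, Ryr1, Mylpf and Myl1 lay below the array medians of 236 to 264 intensity units on every array, with Myog the highest at up to 229. Chrna1 lay below them on every KO array, at up to 195. Whether these genes were expressed at such levels was not tested. Actc1 and Acta1 are close in sequence. Probe sequences were not used here, so signal shared between their probes was not tested.

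Markers of other cells were read between the same groups, where 12% of all genes were lower in KO and 7.4% higher. The smooth muscle list had 3 of 9 genes lower and 1 higher in KO DMSO, and its array means ran from 8.06 to 8.39 in KO DMSO and from 8.52 to 8.95 in WT DMSO. The macrophage and dendritic cell list had 2 of 7 genes lower and 1 higher, with array means of 7.90 to 8.06 in KO DMSO and 8.24 to 8.48 in WT DMSO. The immature MEC list had 1 of 5 lower and 0 higher, with array means of 9.56 to 9.84 in KO DMSO and 10.05 to 10.33 in WT DMSO. The mature MEC list had 2 of 9 higher and 1 lower, with array means of 11.32 to 11.40 in KO DMSO and 11.06 to 11.27 in WT DMSO. Aire itself is on this list, and its probe read higher in KO DMSO than in WT DMSO, as given above. Stroma and endothelium markers overlapped, at 8.10 to 8.30 in KO DMSO and 8.22 to 8.40 in WT DMSO, with 2 of 8 lower and 1 higher. Several of these counts lie near the shares over all genes, and the part of these markers in the muscle result was not tested.

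Under single drugs the genotype difference remained for the same pair of genes. With Etopo, Chrna1 read 7.36 and 7.15 in KO, against 8.57, 8.83 and 8.40 in WT, a difference of -1.35 ± 0.20 (adjusted p = 6.96e-05). Actc1 read 8.34 and 8.28 in KO Etopo, against 9.04, 9.33 and 9.21 in WT Etopo, a difference of -0.89 ± 0.14 (adjusted p = 0.000105). Neither gene's groups overlapped, and these were the 2 of 10 called, both lower, where 12.6% of all genes were called and 8.07% were called lower. The 2 genotypes did not overlap for 5 of 10 genes, against 53.2% of all genes. With Topo, Chrna1 read 6.91, 7.32 and 7.0 in KO, against 8.47, 8.54 and 8.67 in WT, a difference of -1.49 ± 0.18 (adjusted p = 4.73e-06). Actc1 read 8.20, 8.06 and 8.18 in KO Topo, against 9.04, 9.05 and 8.96 in WT Topo, a difference of -0.87 ± 0.12 (adjusted p = 3.16e-05). Again these 2 of 10 were called, both lower, where 15% of all genes were called and 9.62% were called lower. The genotypes did not overlap for 4 of 10 genes, against 35% of all genes. Tnnt3 was not called under either drug: it differed by 0.07 ± 0.15 with Etopo and by -0.28 ± 0.13 with Topo (adjusted p = 0.848 and 0.182).

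With both drugs together the fitted genotype differences of Chrna1 and Actc1 were smaller than under the other treatments. Chrna1 read 7.61 and 7.14 in KO EtopoTopo, against 7.76, 8.19 and 8.0 in WT EtopoTopo, a difference of -0.61 ± 0.20 (adjusted p = 0.0577). Actc1 read 8.34 and 7.97 in KO EtopoTopo, against 8.38, 8.62 and 8.64 in WT EtopoTopo, a difference of -0.39 ± 0.14 (adjusted p = 0.0783). The KO arrays were still below every WT array for both genes, by little for Actc1. The genotypes did not overlap for 3 of 10 genes, against 29.5% of all genes. By limma 0 of 10 genes were called (10.4% of all genes), and 3 had an unadjusted p under 0.05: Chrna1, Actc1 and Acta1, the last with 0.31 ± 0.12 (adjusted p = 0.112). The count is not stable, since 2 genes were called without KO EtopoTopo 1 and 2 after quantile normalization. Averaged over the 4 treatments, KO minus WT was -1.27 ± 0.10 for Chrna1 (adjusted p = 5.7e-10) and -0.90 ± 0.07 for Actc1 (adjusted p = 3.8e-10), the 2 of 10 called, both lower, where 35.9% of all genes were called and 19.8% were called lower. Tnnt3 differed by -0.14 ± 0.07 over the 4 treatments (adjusted p = 0.129) and Ckm by -0.16 ± 0.07 (adjusted p = 0.0634).

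**Figure D2:**
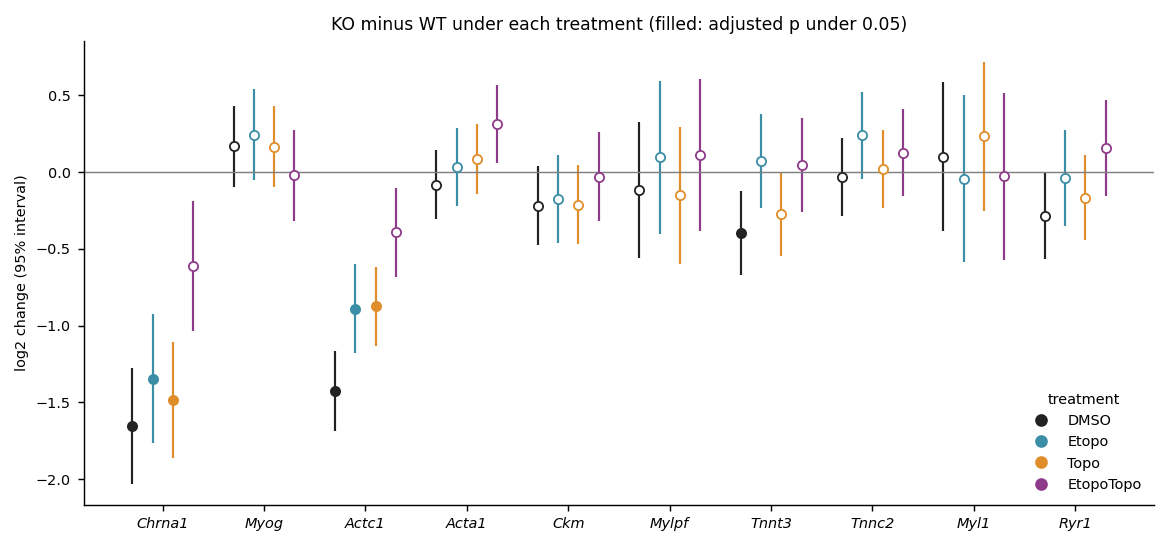
KO minus WT difference in log2 intensity (vertical axis) for each of the 10 muscle genes under each treatment, with 95% intervals from limma and filled points where the adjusted p is under 0.05. Chrna1 and Actc1 lie far below 0 under DMSO, at -1.65 and -1.43, and nearer to it under EtopoTopo, at -0.61 and -0.39, while the other genes lie closer to 0 under DMSO, with Tnnt3 at -0.40 and called.

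Topoisomerase inhibitors are known to alter transcription of long genes, and the drug comparison asks whether the muscle genes responded to them in each genotype. In KO MECs, where Chrna1 and Actc1 were low under DMSO, none of the 10 muscle genes was called under any drug. Chrna1 changed by 0.16 ± 0.20 with Etopo, -0.02 ± 0.18 with Topo and 0.28 ± 0.20 with EtopoTopo, and Actc1 by 0.07 ± 0.14, -0.10 ± 0.12 and -0.09 ± 0.14. By limma the counts were 0 of 10 with Etopo (0% of all genes, and 0 of 10 at an unadjusted p under 0.05), 0 with Topo (1.03%, and 0 of 10) and 0 with EtopoTopo (22.8%, and 1 of 10). The last was Ryr1, which read 7.55 and 7.08 in KO EtopoTopo, against 6.83, 6.98 and 7.04 in KO DMSO, a change of 0.36 ± 0.15 (adjusted p = 0.0808). It was called without KO EtopoTopo 2, so 1 array decides it. The mice were aged 4 weeks in KO EtopoTopo and 6 weeks in KO DMSO, so drug and age cannot be told apart within KO.

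In WT MECs, Actc1 fell with Topo and with EtopoTopo, Chrna1 fell with EtopoTopo, and no other of the 10 genes was called. Actc1 was lower on every drug-treated WT array than on every WT DMSO array, under each of the 3 treatments. Its log2 change was -0.47 ± 0.12 with Etopo (adjusted p = 0.385, unadjusted 0.00105), -0.65 ± 0.12 with Topo (adjusted p = 0.00701) and -1.12 ± 0.12 with EtopoTopo (adjusted p = 1.54e-05), the last a 2.17-fold higher level in WT DMSO. Chrna1 changed by -0.14 ± 0.18 with Etopo (adjusted p = 0.999) and -0.18 ± 0.18 with Topo (adjusted p = 0.871), within the spread of the arrays. With EtopoTopo it changed by -0.76 ± 0.18 (adjusted p = 0.00954), a 1.69-fold higher level in WT DMSO, and the 3 WT EtopoTopo arrays at 7.76, 8.19 and 8.0 lay below the WT DMSO arrays at 8.45, 8.86 and 8.92.

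Of the 10 genes, 0 were called with Etopo (0.00506% of all genes, and 1 of 10 at an unadjusted p under 0.05), 1 with Topo (2.21% of all genes, 1.38% lower) and 2 with EtopoTopo (10.9% of all genes, 7.28% lower), all lower. The drug arrays did not overlap with WT DMSO for 1 of 10 genes with Etopo (11.6% of all genes), 2 with Topo (20%) and 4 with EtopoTopo (30.5%). Acta1 changed by -0.27 ± 0.11 with EtopoTopo in WT (adjusted p = 0.12), and Myog by 0.08 ± 0.13 (adjusted p = 0.736). Between Topo and Etopo in WT, 0 of 10 genes were called by limma (0.00506% of all genes). The difference of Topo minus Etopo was -0.18 ± 0.12 for Actc1 (95% interval -0.43 to 0.08) and -0.04 ± 0.18 for Chrna1 (95% interval -0.42 to 0.34). Of the 10, Myl1 alone had an unadjusted p under 0.05, with -0.51 ± 0.23 (adjusted p = 0.998). At matched age, WT EtopoTopo minus the 1 WT DMSO array of 4 weeks was -1.15 for Actc1 and -0.94 for Chrna1, and WT Topo minus the 2 WT DMSO arrays of 6 weeks was -0.63 for Actc1. The call of Chrna1 with EtopoTopo was lost with age as a covariate (adjusted p = 0.0984) and without the 2 arrays whose labels conflict (adjusted p = 0.171). The call of Actc1 with Topo was lost without the 3 arrays with a male label (-0.70, adjusted p = 0.0584).

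Markers of other cells were read under EtopoTopo in WT too. Over all genes 7.28% were called lower there and 3.6% higher, and the groups did not overlap for 30.5%. In lists of 7 to 9 genes, counts of 1 lie near these shares. For each list only genes called in the direction named are counted. In WT EtopoTopo against WT DMSO, 6 of 7 tuft-like cell markers rose, with array means of 10.35 to 10.49 in WT EtopoTopo and 9.26 to 9.47 in WT DMSO. Mature MEC markers had array means of 10.78 to 10.81 in WT EtopoTopo and 11.06 to 11.27 in WT DMSO, with 2 of 9 lower. Thymocyte markers were apart too, at 7.25 to 7.53 in WT EtopoTopo and 7.77 to 8.69 in WT DMSO, with 2 of 7 lower. So were macrophage and dendritic cell markers, at 7.85 to 7.95 in WT EtopoTopo and 8.24 to 8.48 in WT DMSO, with 2 of 7 lower. Stroma and endothelium markers read 8.02 to 8.14 in WT EtopoTopo and 8.22 to 8.40 in WT DMSO, with 1 of 8 lower, and cortical epithelium markers 9.23 to 9.33 in WT EtopoTopo and 9.52 to 9.54 in WT DMSO, with 1 of 7 lower. Smooth muscle markers overlapped, at 8.29 to 8.61 in WT EtopoTopo and 8.52 to 8.95 in WT DMSO, as did those of immature MECs, B cells and thymic epithelium. Their part in the fall of Actc1 and Chrna1 was not tested. In KO EtopoTopo against KO DMSO, 11.7% of all genes were called lower and 11.1% higher. Of the thymic epithelium list Foxn1 (-0.96), Cldn4 (-0.77) and Krt8 (-0.63) were called lower there. Its array means were 10.56 to 11.46 in KO EtopoTopo and 11.57 to 11.63 in KO DMSO. Krt5 (-1.13), Itgb4 (-0.71) and Krt14 (-0.66) of the immature MEC list were called lower too. No gene of either list was called higher. The part of these markers in the KO values was not tested.

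**Figure D3:**
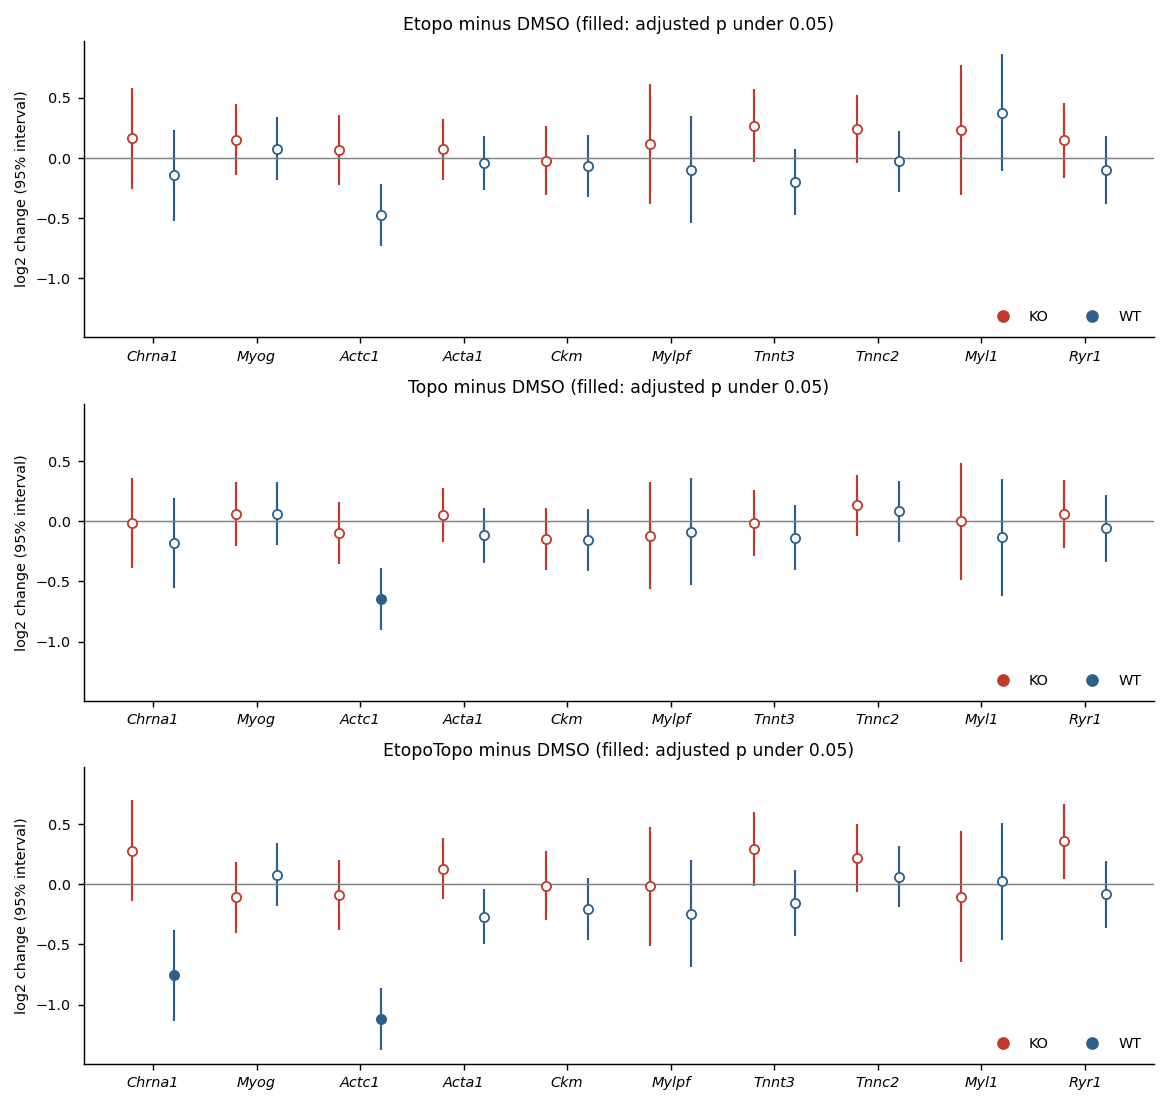
Drug minus DMSO change in log2 intensity for each muscle gene, in KO (red) and WT (blue), under Etopo, Topo and EtopoTopo from top to bottom, with 95% intervals from limma and filled points where the adjusted p is under 0.05. In KO, Actc1 lies at 0.07, -0.10 and -0.09, and in WT at -0.47, -0.65 and -1.12. Chrna1 in WT lies at -0.76 under EtopoTopo.

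The difference between the genotypes in the response was tested as an interaction, the drug effect in KO minus the drug effect in WT. With EtopoTopo it was 1.04 ± 0.27 for Chrna1 (95% interval 0.47 to 1.60, adjusted p = 0.0434) and 1.03 ± 0.19 for Actc1 (95% interval 0.65 to 1.42, adjusted p = 0.0036). These were 2 of 10 genes called, both higher, where 2.46% of all genes were called, 2.35% higher and 0.106% lower. Both were already low in KO DMSO, whose values enter the interaction, and whether that low level limits a further fall was not tested. With Topo the interaction of Actc1 was 0.55 ± 0.18 (adjusted p = 0.446) and 0 of 10 genes were called by limma (0.0759% of all genes, and 1 of 10 at an unadjusted p under 0.05). With Etopo it was 0.54 ± 0.19 for Actc1 (adjusted p = 0.95), and 0 of 10 were called (0% of all genes, and 2 of 10 at an unadjusted p under 0.05). Acta1, Tnnt3 and Ryr1 had interactions with EtopoTopo of 0.40 ± 0.16, 0.45 ± 0.20 and 0.44 ± 0.20, with adjusted p-values of 0.26 to 0.313. Both calls were lost without KO EtopoTopo 1 (adjusted p = 0.441 for Chrna1 and 0.0509 for Actc1) and without the 2 arrays whose labels conflict (0.278 and 0.0843). Over the 34 alternative settings the call of Actc1 held in 31 and that of Chrna1 in 14, so the Chrna1 interaction is close to the threshold.

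Read across all 8 groups, each gene has its own order of levels. For Chrna1 the means ran from 7.08 in KO Topo through 7.09 in KO DMSO, 7.25 in KO Etopo and 7.37 in KO EtopoTopo to 7.99 in WT EtopoTopo, 8.56 in WT Topo, 8.60 in WT Etopo and 8.74 in WT DMSO. The 4 KO groups overlap one another, as do the last 3 WT groups, and WT EtopoTopo stands between, apart from both. Over genotypes, Chrna1 spanned 6.71 to 7.61 with a median of 7.15 on the 10 KO arrays, and 7.76 to 8.92 with a median of 8.51 on the 12 WT arrays. For Actc1 the means lay between 8.15 and 8.31 in the 4 KO groups and then ran through 8.55 in WT EtopoTopo, 9.02 in WT Topo and 9.20 in WT Etopo to 9.67 in WT DMSO. WT Topo and WT Etopo overlap, and the other WT neighbours do not. KO DMSO 3 and WT EtopoTopo 1 both round to 8.38, so the genotypes touch for Actc1.

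Tnnt3 had its lowest mean in KO Topo, 7.91, and its highest in WT DMSO, 8.32, and the groups between overlapped. The standard deviation over all 22 arrays ranked Chrna1 at the 98.3rd percentile of genes and Actc1 at the 95.9th. Myl1 stood at the 75.7th and Mylpf at the 59.0th, while Acta1 stood at the 3.35th, Tnnc2 at the 5.58th, Myog at the 9.65th and Ckm at the 12.4th. Ryr1 stood at the 16.6th and Tnnt3 at the 26.2nd, so 6 of the 10 varied less over the arrays than the median gene.

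The genes with the most similar pattern were listed for Chrna1, Actc1 and Tnnt3 by Pearson r of log2 intensity over the 22 arrays, as a description without a test. The arrays fall into genotypes, so r over the 12 WT arrays is given beside it. For Chrna1 they were Car1 (0.971 over all arrays, 0.893 over WT), H2-M10.5 (0.969 and 0.757) and Cfap206 (0.969 and 0.843). For Actc1 they were Calcr (0.972 and 0.941), Reg4 (0.968 and 0.940) and Myl4 (0.966 and 0.919). Calcr encodes the calcitonin receptor, and Myl4 the myosin light chain of the heart atrium and the embryo, so 1 of the 3 is itself a muscle gene. For Tnnt3 they were Col6a3 (0.902 and 0.844), Pde3a (0.874 and 0.787) and Otogl (0.859 and 0.779).

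The rest of the muscle programme was followed with 7 lists of skeletal muscle genes, which without the 10 genes above held 80 symbols, 77 of them measured. In KO DMSO against WT DMSO, 18 of the 77 fell and 6 rose, with a median difference of -0.19 against -0.01 over all genes tested. Over all genes 12% fell and 7.4% rose, close to the share of the 77 that rose. After quantile normalization 13 fell and 8 rose, with a median of -0.06, and without the DMSO arrays high in thymocyte genes 14 fell and 5 rose. The shares of all genes under these settings are not given here. Among the 5 acetylcholine receptor subunits only Chrna1 was called lower, also after quantile normalization and with an offset before log2. Chrnb1, the beta subunit, rose by 0.51 ± 0.14 (adjusted p = 0.0142), and Musk, the receptor kinase of the synapse, by 0.41 ± 0.14 (adjusted p = 0.0411). The call of Chrnb1 held in 31 of 34 alternative settings (adjusted p up to 0.0789), and that of Musk in 22 (up to 0.135). Chrnd, Chrne and Chrng, the delta, epsilon and gamma subunits, differed by 0.27, 0.25 and -0.04 (adjusted p = 0.139, 0.145 and 0.89), and of these Chrne was called higher after quantile normalization (0.38, adjusted p = 0.00751). Among transcription factors, 3 of 10 fell and 0 rose: Pax7 and Pax3, factors of muscle progenitors, at -0.53 ± 0.12 and -0.48 ± 0.12, and Myf6, a late myogenic factor, at -0.45 ± 0.14. The calls of Pax7 and Pax3 held in all 34 alternative settings, and that of Myf6 in 25 of 33 (-0.67 to -0.26, adjusted p up to 0.236). Myod1, Mef2c and Myf5 were not called, at -0.37, -0.31 and 0.02.

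The thin filament list gave 3 of 14 lower and 0 higher, counting Actc1 and Tnnt3, and the other was Tnni1, slow troponin I, at -1.39 ± 0.15 (adjusted p = 3.97e-07). The thick filament list gave 4 of 17 lower and 1 higher. Myh3, the embryonic myosin heavy chain, fell by 1.42 on the log2 scale (SE 0.14, adjusted p = 1.39e-07) and Myl3, a slow and ventricular light chain, fell by 0.88, whereas Myh4, a fast adult heavy chain, rose by 0.69 ± 0.13. In the Z disc and membrane list 5 of 13 fell, with Klhl40 at -0.65 and Sgca, alpha-sarcoglycan, at -0.61, and Des, desmin, rose by 0.97 ± 0.29. Of 14 calcium handling genes, Atp2a1, the calcium pump of fast fibres, fell by 0.57 on the log2 scale and Cacna1s, the voltage sensor that opens Ryr1, fell by 0.56, and Jph1, junctophilin, rose by 1.34 ± 0.14. Of 11 energy genes 3 fell, with Pygm, muscle glycogen phosphorylase, at -0.72 and Ampd1 at -0.68, and Pfkm rose by 0.85. In all 7 lists most genes were not called, and both directions occurred in 5 of them.

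**Figure D4:**
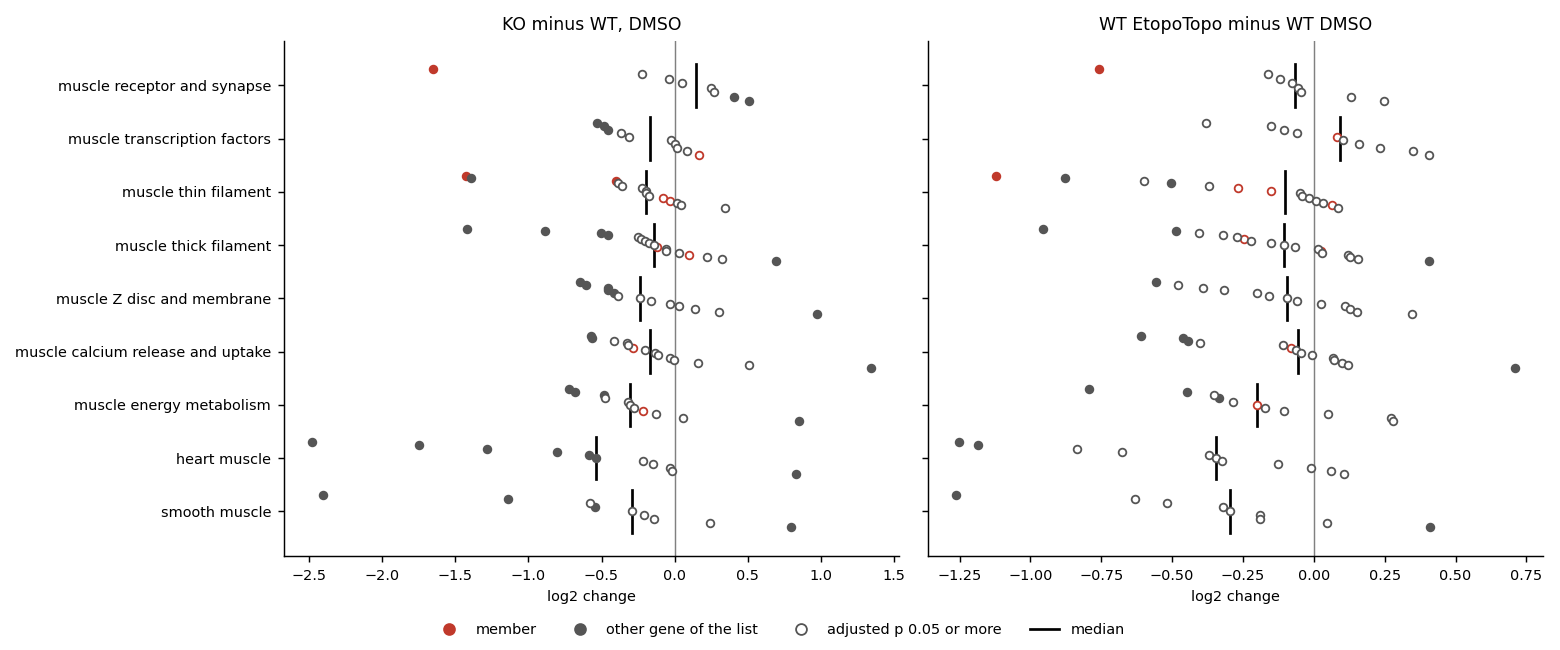
Log2 change (horizontal axes) of each measured gene of 7 skeletal muscle lists, a heart muscle list and a smooth muscle list, 1 list a line, for KO minus WT under DMSO (left) and WT EtopoTopo minus WT DMSO (right). Points are genes, filled where the adjusted p is under 0.05 and red for the 10 genes followed here, and black bars are list medians. On the left, Tnni1 at -1.39 and Myh3 at -1.42 lie near Chrna1 and Actc1, and Jph1 lies at 1.34.

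Under EtopoTopo genes of the wider lists were called in both genotypes, but the counts changed with an age covariate and without single arrays. Within a group, age varied only through WT DMSO 3 and WT Etopo 3, so the age term rests on those arrays. With it the median change of the 77 genes was 0.29 in KO and -0.07 in WT, so calls were lost without smaller changes. The shares of all genes given below are of the main fit only. In KO EtopoTopo against KO DMSO, 14 rose and 5 fell (median 0.24, against 0.06 over all genes tested), where 11.1% of all genes rose and 11.7% fell, and where the olfactory and vomeronasal receptor genes moved by a median of 0.49. With age as a covariate 0 of the 77 were called there, without KO EtopoTopo 1 also 0, and without the DMSO arrays high in thymocyte genes 4 rose and 6 fell. Tnni1 rose there, as fitted without age, by 0.55 ± 0.17, and Actn3, the fast-fibre alpha-actinin, changed by -1.0 ± 0.20. In WT EtopoTopo against WT DMSO, 11 of the 77 fell and 2 rose (median -0.06), where 7.28% of all genes fell and 3.6% rose, with Myh3 at -0.95 ± 0.14, Actn3 at -0.88 ± 0.18 and Tnni1 at -0.50 ± 0.15, and Cacnb1 at 0.71 ± 0.12. With age as a covariate 3 fell and 1 rose, without the DMSO arrays high in thymocyte genes 6 fell and 2 rose, and without the 2 arrays whose labels conflict 0 were called. In the interaction with EtopoTopo 9 of the 77 were higher and 0 lower, where 2.35% of all genes were higher and 0.106% lower. This count was 8 with age as a covariate and 4 after quantile normalization. It was 1 without KO EtopoTopo 1, 1 without the 2 arrays whose labels conflict, and 1 without the DMSO arrays high in thymocyte genes. All of the 9 but Lmod3 were also called lower in KO DMSO, whose values enter the interaction. In WT Topo 2 of the 77 fell (1.38% of all genes), Myh3 at -0.55 and Ttn, titin, at -0.53, and 0 rose. With age as a covariate 1 fell, and without the DMSO arrays high in thymocyte genes 0 were called.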

How the data were processed

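RNA of sorted MECs was measured on 22 Affymetrix Gene ST 1.0 arrays. The authors deposited a linear intensity per probe. The submitters' processing notes list RMA and Affymetrix Power Tools, with no version. The values were converted to log2 as they stood, with no offset and no renormalization, although the planned design had assumed log2 values. Of 24922 probes, 21425 had a single gene symbol, 1399 several and 2098 none. The probe with the highest mean was kept for each gene, giving 19752 genes, and low values were not filtered. Samples were grouped by title. The 8 group means were fitted with limma 3.58.1 in R 4.3.3 (14 residual degrees of freedom), with Benjamini-Hochberg adjustment over all genes of each of 15 contrasts and calls at an adjusted p under 0.05. The procedure was tested on simulated data. The number of arrays limits the precision. The genes and lists were chosen with earlier results of these data known. All 10 genes are described, and of each muscle list up to 4 others called in KO DMSO against WT DMSO and up to 4 called under a drug, by size of change, plus receptor subunits and transcription factors. The genes most like a called gene were the 3 with the highest r, without predicted or small RNA genes. Promoters are from RefSeq (GRCm38.p6), matched by symbol for 9 of the 10 genes. Alternatives covered normalization, offset, filter, probes, variance model, block, age and left-out arrays. Those without the arrays with a male label and with array weights were chosen after seeing the data.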

Additional observations from a re-analysis of the deposited data

Results flagged for a closer look

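For 14 genes the response to EtopoTopo differed between KO and WT by the interaction term in limma, given here as the log2 change in KO minus that in WT. Chrna1 (1.04 ± 0.27) and Actc1 (1.03 ± 0.19) are the muscle antigens among them. Of the wider skeletal muscle lists the genes were Myh3 (1.26), Tnni1 (1.06), Myl3 (0.90), Cacna1s (0.85), Myh8 (0.78), Lmod3 (0.74), Sgca (0.66), Pygm (0.62) and Ampd1 (0.61). Of the heart muscle list they were Nppa (1.81) and Myl4 (1.25), and of the smooth muscle list Cnn1 (1.82). Adjusted p-values ran from 0.00177 to 0.0477, and all 14 differences were positive. Of all genes tested, 486 were called in this interaction (2.46%), and 465 of these were positive and 21 negative. The shared direction of the 14 is therefore that of most called genes. All of the 14 but Lmod3 were also called lower in KO DMSO than in WT DMSO. The DMSO values enter both comparisons, so the interaction is not independent of that difference. Whether a low level in KO limits a further fall was not tested. All 1194 olfactory and vomeronasal receptor genes together had a median interaction of 0.19, and KO EtopoTopo 1 had the narrowest spread of values. Without that array 0 of the 2 antigens and 2 of the other 12 genes were called. Without the 2 arrays whose labels conflict the counts were also 0 of 2 (adjusted p = 0.278 for Chrna1 and 0.0843 for Actc1) and 2 of 12. Without the thymocyte-high DMSO arrays Actc1 and 4 of the other 12 were called, and with age as a covariate Actc1 and 11 of 12.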

How the results depend on the processing

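Chrna1 and Actc1 kept their direction and call in KO against WT under DMSO, Etopo, Topo and the mean of treatments in all 34 alternatives, and so did Actc1 in WT EtopoTopo against WT DMSO. The counts below are of the 10 muscle genes, and the cause of a change was not tested. They are not set beside the share of all genes called under the same setting, so a changed count is not a result about these genes. In KO against WT with DMSO, array weights gave 5, and with Etopo 4. With EtopoTopo the count was 2 after quantile normalization (Chrna1 and Acta1), 1 with a filter on low values, 1 with a trended robust prior, 1 without both thymocyte-high DMSO arrays, and 0 to 2 leaving out 1 array (2 without KO EtopoTopo 1). For the mean of treatments it was 5 after quantile normalization, and 2 to 4 leaving out 1 array (4 without KO EtopoTopo 1). In WT, Etopo gave 1 with array weights (Actc1), Topo 0 without the 3 arrays with a male label, and EtopoTopo 1 both under an age covariate and without the pair of arrays of conflicting label. In KO EtopoTopo against KO DMSO the count was 0 to 1 leaving out 1 array. The EtopoTopo interaction gave 1 after quantile normalization, 1 with age, 1 without both thymocyte-high arrays, 1 with only the arrays of the contrast, 0 without both arrays of conflicting label, 0 with array weights, and 0 to 3 leaving out 1 array (0 without KO EtopoTopo 1).

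In KO against WT under DMSO, uncalled genes gained a call or changed sign. Myog was called with array weights, higher in KO (0.26, limma adjusted p = 0.0404). Ryr1 was called lower with array weights (-0.25, adjusted p = 0.0482) and without WT DMSO 1 (-0.40, adjusted p = 0.0471). Acta1 was 0.0021 without the thymocyte-high arrays. Mylpf was 0.0669 after quantile normalization, 0.14 without the thymocyte-high arrays, 0.19 with array weights and -0.25 to 0.12 leaving out 1 array. Tnnc2 was 0.12 after quantile normalization, 0.0248 with array weights, 0.0093 without KO DMSO 1 and -0.13 to 0.0857 leaving out 1 array. Myl1 was -0.15 with array weights and -0.0496 to 0.31 leaving out 1 array. The call of Tnnt3 was lost with quantile normalization, the replicate block, only the arrays of the contrast, without the arrays of conflicting label, without the thymocyte-high arrays, and without WT DMSO 2, WT DMSO 3, KO DMSO 1 or KO DMSO 2 (adjusted p = 0.0501 to 0.188). Of the 35 other muscle genes called there, 19 kept the call in every setting and 0 changed sign. Groups of 2 or 3 arrays limit what could be called.

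The deviations of 71 same-numbered pairs of arrays from their group means correlated at a median of -0.05 (range -0.56 to 0.59), and 25 pairs were over 0.1. These values cannot tell whether arrays of the same replicate number share a preparation. With the replicate number as a block, Tnnt3 was -0.40 (adjusted p = 0.0501), and no count of calls moved by over 1.5 times.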

Other observations

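Genes of heart and smooth muscle also differed between the genotypes. In KO DMSO against WT DMSO, 6 of 11 heart muscle genes fell and 1 rose, with a median of -0.54 against -0.01 over all genes tested, of which 12% fell and 7.4% rose. Nppa, the atrial natriuretic peptide, differed by -2.48 ± 0.24 (adjusted p = 9.81e-08 by limma), Myl4 by -1.75 ± 0.16 and Nppb by -1.28 ± 0.22, while Pln, phospholamban, rose by 0.83 ± 0.27. Of 9 smooth muscle genes 3 fell and 1 rose, with a median of -0.29: Cnn1, calponin, differed by -2.41 ± 0.21 (adjusted p = 2.23e-08), Acta2, smooth muscle alpha-actin, by -1.14 ± 0.37, Actg2 by -0.54 ± 0.17, and Synpo2 by 0.80 ± 0.16. The call of Acta2 held in 28 of 34 alternative settings (adjusted p up to 0.192), that of Actg2 in 26 of 33 (up to 0.214) and that of Pln in 28 of 34 (up to 0.156). In WT EtopoTopo against WT DMSO, Nppa changed by -1.25 ± 0.24, Myl4 by -1.19 ± 0.16 and Cnn1 by -1.26 ± 0.21.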
